A study of Mus musculus with 6 samples.

Results

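The inhibitors of cyclin-dependent kinases (CDKs) and the D-type cyclins are the genes that set whether a cell leaves the resting phase and enters division. They were followed here in cultured mouse fat cells differentiated from inguinal tissue, a white fat depot under the skin. All probe sets, the groups of short array probes read together as 1 value, were taken if their platform annotation named a member and no other gene. This gave 22 probe sets of 10 genes, out of 45037 probe sets other than controls and 18193 genes named on the array. The 2 groups were 3 arrays of cells given rosiglitazone, at 1 uM for 4 days and labelled as beiging, and 3 arrays of control cells, labelled non-activated, and the cells of both groups were differentiated inguinal fat cells. Rosiglitazone is a drug that activates PPARγ, the nuclear receptor that drives fat cell differentiation, and beiging is the turn of white fat towards heat production. Groups follow the sample titles and the treatment label, since the protocol text names the drug for all 6 samples. The labels do not give a strain, an age or a sex. They also do not tie the replicates to separate cultures, so a p-value here covers the spread among 3 samples, and that spread may be technical. Array medians lay between 44.46 and 46.66 in intensity, the brightness of a probe set on a linear scale, and log2 values correlated at 0.9944 to 0.996 within groups and at 0.9839 to 0.9846 between them.

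D-type cyclins, encoded by Ccnd1, Ccnd2 and Ccnd3, bind the kinases CDK4 and CDK6, and the complexes phosphorylate the retinoblastoma protein, which frees E2F transcription factors to switch on genes of DNA replication. INK4 inhibitors, encoded by Cdkn2a, Cdkn2b, Cdkn2c and Cdkn2d, bind CDK4 and CDK6 and keep the cyclin away. CIP/KIP inhibitors, encoded by Cdkn1a, Cdkn1b and Cdkn1c, bind complexes of several CDKs with their cyclins. Fat cell precursors leave the cell cycle as they differentiate, and mature fat cells are largely resting cells.

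With rosiglitazone 8 of the 10 genes were lower, 1 was higher and 1 did not pass the test. Each gene was read from its brightest probe set, and of all 12952 genes so read 35.3% were lower and 23.0% higher. The largest falls were in Ccnd1 and Cdkn1c, to 35.2% and 31.9% of the control level. In bulk RNA, fewer cells of a type and less RNA per cell cannot be told apart. Ccnd2 was the gene that rose, by 1.26-fold, and Cdkn2d the gene that did not pass the test. With the arrays rescaled by median centring 6 of the 10 genes were called lower and 2 higher, and after quantile normalization 7 and 2. Of the 22 probe sets all passed the filter on low values, 7 were called higher and 14 lower at a limma adjusted p under 0.05, adjusted over the 27022 probe sets tested. Calls were common across the array: 51.9% of all probe sets tested were called, 21.2% higher and 30.7% lower. Of the 22, 4 were called and at least 2-fold lower (18.2%) and 0 at least 2-fold higher, against 3.94% and 1.37% of all probe sets. These 4 were the 3 probe sets of Ccnd1 and that of Cdkn1c. The arrays of the groups did not overlap for 19 of the 22, against 58.3% of all probe sets. Of the 19, 7 were of Ccnd2 and 3 of Ccnd1, and probe sets of the same gene are not separate members. Markers of macrophages (10 of 11 tested) and of preadipocytes and fibroblasts (4 of 5) were lower with rosiglitazone as well, as described at the end, and their part in the changes of Ccnd1, Cdkn1c and the other members was not tested.

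**Figure D1:**
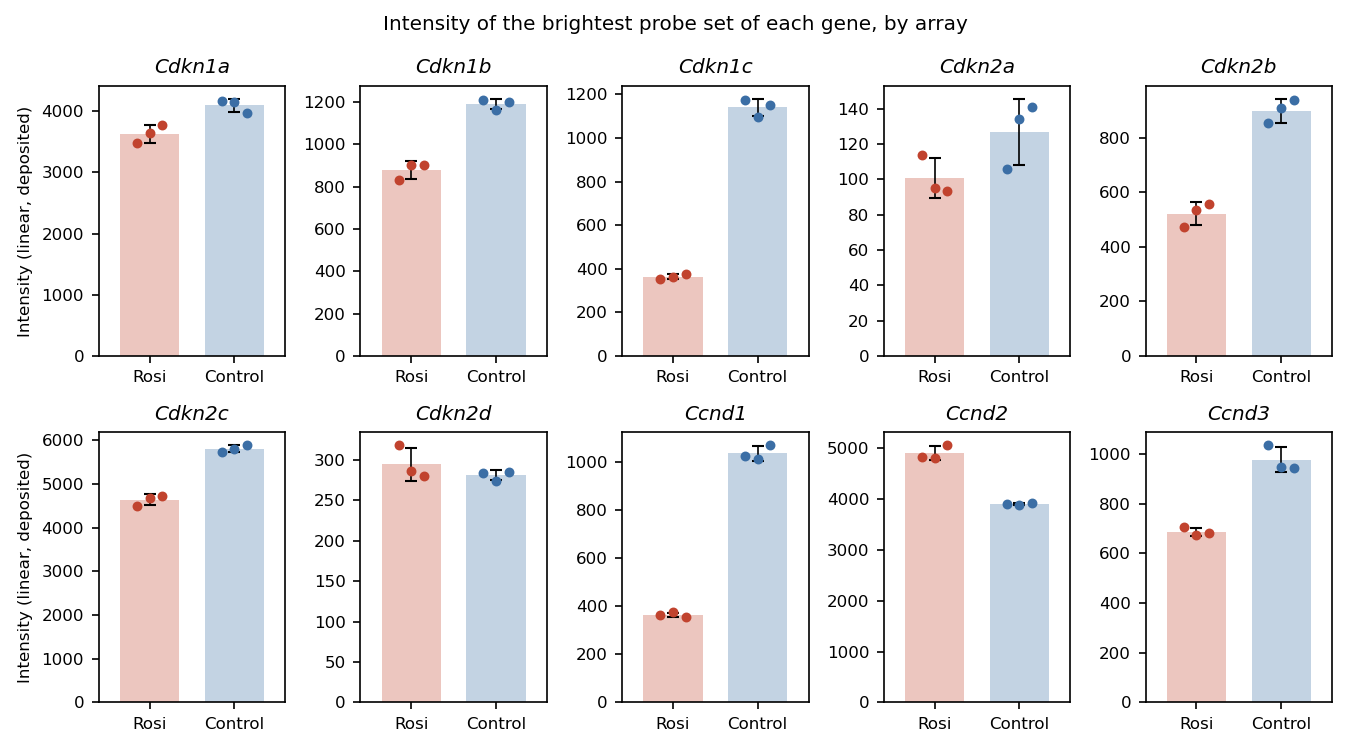
Intensity of the brightest probe set of each gene on a linear scale starting at 0, with rosiglitazone (Rosi) on the left of control in each panel. Points are arrays, bars are means and error bars are SDs (n = 3 each); Cdkn1c and Ccnd1 sit near 364 and 365 on the treated arrays, against 1140 and 1037 on the control arrays.

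The sequence before the start of transcription was looked up for the members in RefSeq's table for assembly GRCm38.p6. It matched 7 of the 10 genes with 11 annotated starts. Ccnd1 and Cdkn1c, which fell most, and Ccnd2, which rose, had no entry, so no window of theirs was searched. Windows of 250 bases were searched on both strands for 8 words known from the control of these genes, counting any overlap. Shown here are 4 windows of genes that fell: that of Cdkn1a for its p53 word, that of Cdkn2b because it had the largest fall among INK4 genes, and those of Cdkn1b and Cdkn2c as members with smaller falls. Capitals mark the words found, and each sequence runs 5′ to 3′ towards the start.
Cdkn1a, the upstream start (chr17:29090729-29090978, plus strand): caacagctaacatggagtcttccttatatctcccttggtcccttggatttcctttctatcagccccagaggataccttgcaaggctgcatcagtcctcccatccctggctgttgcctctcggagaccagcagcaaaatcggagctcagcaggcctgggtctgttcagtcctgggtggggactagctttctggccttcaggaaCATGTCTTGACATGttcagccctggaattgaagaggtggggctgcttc
Cdkn2b (chr4:89311033-89311282, minus strand): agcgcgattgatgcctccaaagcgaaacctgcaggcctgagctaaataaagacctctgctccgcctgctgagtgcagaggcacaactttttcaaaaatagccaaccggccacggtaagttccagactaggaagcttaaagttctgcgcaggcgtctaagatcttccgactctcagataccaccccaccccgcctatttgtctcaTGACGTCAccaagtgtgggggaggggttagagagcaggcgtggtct
Cdkn1b (chr6:134920151-134920400, plus strand): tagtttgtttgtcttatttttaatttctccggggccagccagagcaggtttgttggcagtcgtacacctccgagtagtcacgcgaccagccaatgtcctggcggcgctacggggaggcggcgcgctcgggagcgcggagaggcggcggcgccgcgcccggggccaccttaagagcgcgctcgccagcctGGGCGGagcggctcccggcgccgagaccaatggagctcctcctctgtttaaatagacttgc
Cdkn2c, the upstream start (chr4:109666757-109667006, minus strand): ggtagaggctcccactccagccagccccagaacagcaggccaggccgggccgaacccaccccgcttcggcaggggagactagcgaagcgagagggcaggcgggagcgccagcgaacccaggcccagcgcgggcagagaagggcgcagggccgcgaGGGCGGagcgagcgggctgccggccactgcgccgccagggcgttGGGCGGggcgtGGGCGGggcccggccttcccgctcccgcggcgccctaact

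In the Cdkn1a window the capitals cover 2 CATG cores with 6 bases between them, a narrow form of the p53 binding site, which 0.49% of the 32851 promoter windows hold. Cdkn1a is the classical p53 target gene. The Cdkn2b window holds the cyclic AMP response word TGACGTCA, found in 1.55% of all windows. In the windows of Cdkn1b and Cdkn2c the capitals are GC boxes, GGGCGG, the word bound by Sp1-type factors, with 1 in Cdkn1b and 3 in Cdkn2c. GC boxes occurred in 7 of the 11 windows of the members and in 32.7% of all windows. The E2F word TTTCCCGC was found in 1 window, at the upstream start of Cdkn2a (0.895% of all windows), and the FoxO word TGTTTAC in 1, at the upstream start of Ccnd3 (3.17%). The E2F word TTTGGCGC, the E-box CACGTG and the paired PPAR word, 2 copies of AGGTCA with 1 base between them, were not in any of the 11 windows, and 0.417%, 6.02% and 0.0335% of all windows hold them. These matches describe letters in a window and do not show binding.

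Among the D-type cyclins, Ccnd1 fell on all 3 of its probe sets. This cyclin is the one most often tied to growth factor and adhesion signals. Its brightest probe set, 1417420_at, read 362, 375 and 357 with rosiglitazone, against 1024, 1015 and 1071 in control cells. All treated arrays lay far under the lowest control array. The log2 change, rosiglitazone minus control, was −1.51 (SE 0.05, adjusted p = 6.0e-13), and 0.981% of all probe sets tested had a lower one. Probe set 1417419_at read 118, 123 and 105 with rosiglitazone, against 426, 382 and 397 in control cells, a log2 change of −1.80 (SE 0.08). On 1448698_at the values were 230.0, 239 and 246 with rosiglitazone, against 599, 610 and 549 in control cells, a log2 change of −1.30 (SE 0.06). All 3 probe sets were lower, by different sizes, and the groups overlapped on none of them. The changes stayed between −1.85 and −1.17 over the alternatives tried for these probe sets, and no alternative ended a call.

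Ccnd2, which encodes cyclin D2, was higher on all 7 of its probe sets, and the groups overlapped on none of them. The brightest, 1434745_at, read 4833, 4811 and 5057 with rosiglitazone, against 3897, 3887 and 3923 in control cells. Its log2 change was 0.33 (SE 0.03, adjusted p = 8.7e-08). The other 6 probe sets changed by 0.18 to 0.46. Probe set 1416124_at had the largest change of the 7: it read 248, 247 and 251 with rosiglitazone, against 160, 196 and 189 in control cells, which is 0.46 on the log2 scale (SE 0.08, adjusted p = 1.9e-04). The smallest change was that of 1430127_a_at, at 2588, 2555 and 2443 with rosiglitazone, against 2174, 2262 and 2244 in control cells, and amounted to 0.18 on the log2 scale (SE 0.03, adjusted p = 2.7e-04). The remaining 4 probe sets lay between these in size. Probe set 1416122_at read 3749, 3759 and 3750.2 with rosiglitazone, against 3188, 3296 and 3096 in control cells (log2 change 0.23). Probe set 1416123_at read 1258, 1196 and 1196 with rosiglitazone, against 936, 965 and 882 in control cells (log2 change 0.39). The last 2 carry suffixes that mark probes able to match other transcripts. Of these, 1448229_s_at read 2676, 2739 and 2891 with rosiglitazone, against 2164, 2169 and 2327 in control cells (log2 change 0.32). The other, 1455956_x_at, read 3666, 3695 and 3866 with rosiglitazone, against 2902, 2981 and 2869 in control cells (log2 change 0.36). In both, the lowest treated array stood above the highest control array. These are modest changes for this array, since 14.7% of all probe sets had a higher change than the brightest Ccnd2 probe set. None of the 7 passed a test against a change of 1.5-fold. Each of them stayed higher and called under the other scalings of the arrays, and median centring gave 0.36 for 1416122_at and 0.31 for 1430127_a_at.

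Ccnd3, the D-type cyclin found most widely across tissues and reported to act in fat cell differentiation in mouse cells, was lower on its 3 probe sets. The brightest, 1415907_at, read 704, 673 and 682 with rosiglitazone, against 1035, 949 and 945 in control cells, with no overlap. Its log2 change was −0.51 (SE 0.05, adjusted p = 1.8e-07). The other 2 probe sets are dim and their calls are weak. Probe set 1444323_at read 84.3, 80.9 and 70.1 with rosiglitazone, against 108, 98.4 and 95.5 in control cells, a small gap with no overlap (log2 change −0.36, adjusted p = 0.0133). On 1438805_at the treated arrays scattered widely, at 63.4, 18.3 and 9.55 with rosiglitazone, against 43.1, 53.9 and 60.2 in control cells, so the groups overlapped and 1 treated array lay under the floor of 16 (log2 change −0.97, SE 0.38, adjusted p = 0.0432). Leaving out control replicate 1 (−0.31) or rosiglitazone replicate 3 (−0.28) ended the call of 1444323_at, as did median centring (−0.24, adjusted p = 0.0832) and testing without a filter on low values (adjusted p = 0.059). That of 1438805_at was lost without control replicate 2 or 3 (−0.94 and −0.86) or rosiglitazone replicate 2 or 3 (−0.71 and −0.61), and in 13 of 18 alternatives in all, with values from −1.60 (without rosiglitazone replicate 1) to 0 (with a floor of 64) and adjusted p from 2.9e-05 to 1.

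Within each array the D-type cyclins shifted against each other. On the brightest probe sets the log2 change of Ccnd1 minus that of Ccnd2 was −1.83, and that of Ccnd3 minus Ccnd2 was −0.83. Such within-array differences do not depend on how the arrays were scaled by a common factor. For each of the 8 pairs of members compared in this way, across all 3 families, the exact permutation test over arrays gave p = 0.1 (two-sided, 0.1 after adjustment over the 8 pairs), the smallest value that 3 against 3 allows, so this test cannot pass the threshold of 0.05.

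**Figure D2:**
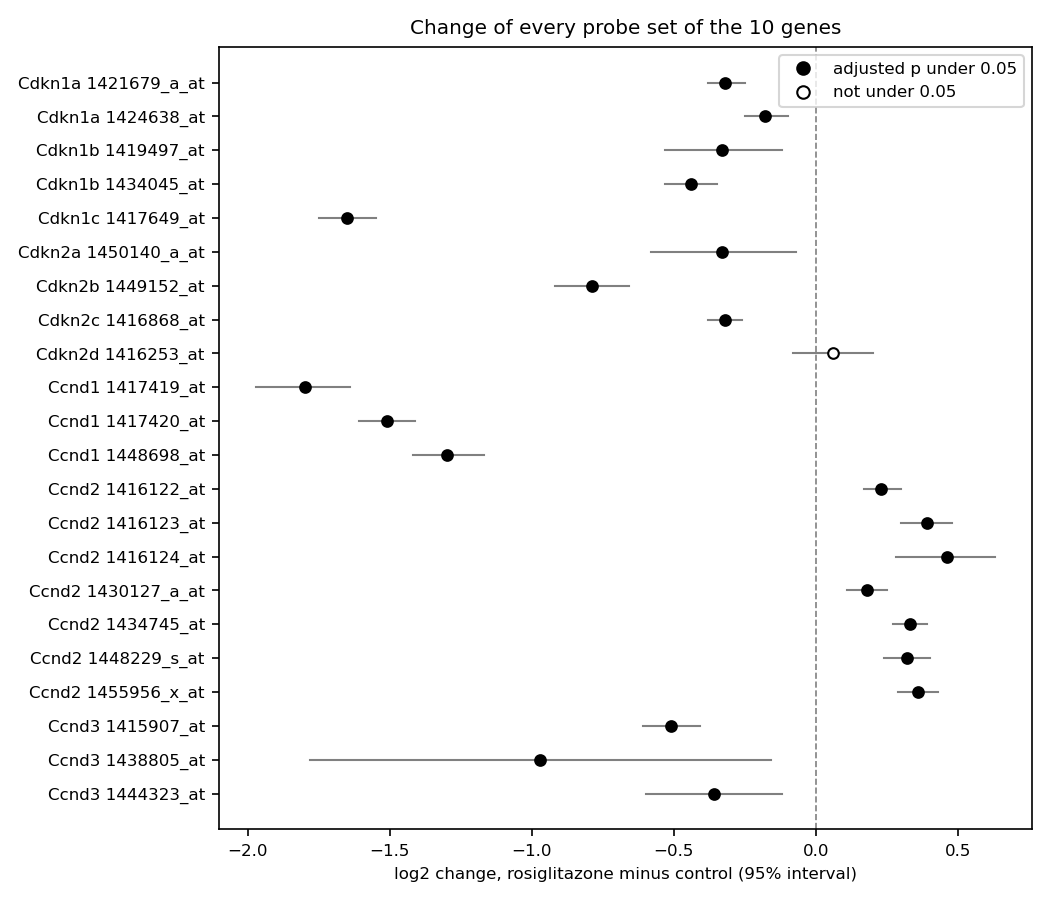
Log2 change, rosiglitazone minus control, of each of the 22 probe sets with limma's 95% interval, where filled points passed an adjusted p under 0.05 and open points did not. The 7 probe sets of Ccnd2 lie right of 0, the 3 of Ccnd1 lie between −1.80 and −1.30, and the interval of Cdkn2d spans 0.

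Of the CIP/KIP inhibitors, Cdkn1c had the largest fall. It encodes p57, the product of an imprinted gene and a protein that restrains growth in development. Its single probe set, 1417649_at, read 352, 364 and 375 with rosiglitazone, against 1173, 1097 and 1151 in control cells. No treated array came near a control array. The log2 change was −1.65 (SE 0.05, adjusted p = 2.9e-13), and 0.592% of all probe sets had a lower change. It ranged from −1.68 to −1.53 over 21 alternatives and was called in each of them, with limma's adjusted p from 3.7e-15 to 6.3e-05.

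Cdkn1b and Cdkn1a fell less. Cdkn1b encodes p27, the inhibitor that rises in many cell types at rest. Its brighter probe set, 1434045_at, read 829, 902 and 903 with rosiglitazone, against 1209, 1164 and 1199 in control cells, and its log2 change was −0.44 (SE 0.04, adjusted p = 4.3e-07). The dimmer one, 1419497_at, read 120.1, 130 and 107 with rosiglitazone, against 138, 154 and 155 in control cells (log2 change −0.33, SE 0.10, adjusted p = 0.00936). The groups did not overlap on either probe set. The call of the dimmer one was lost after quantile normalization (−0.23), after median centring (−0.21) and without a filter on low values.

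Cdkn1a encodes p21, which p53 induces after DNA damage and which is also abundant in many differentiated cells. Probe set 1424638_at read 3484, 3641 and 3771 with rosiglitazone, against 4162, 4158 and 3979 in control cells, a log2 change of −0.18 (SE 0.03, adjusted p = 3.8e-04). Probe set 1421679_a_at read 2259, 2296 and 2247 with rosiglitazone, against 2763, 2854 and 2855 in control cells, a log2 change of −0.32 (SE 0.03, adjusted p = 3.2e-07). Both show separate groups at a small distance. After median centring the change of 1424638_at was −0.05 and not called (adjusted p = 0.258), while that of 1421679_a_at was −0.19 and still called. On the same arrays, the log2 change of Cdkn1c minus that of Cdkn1a was −1.47 and minus that of Cdkn1b was −1.21.

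Among the INK4 inhibitors Cdkn2b fell most. It encodes p15, known as a target of TGF-beta signalling in epithelial cells. Probe set 1449152_at read 473, 535 and 556 with rosiglitazone, against 852, 907 and 938 in control cells, 58.0% of the control mean. The treated arrays all lay under the control arrays. The log2 change was −0.79 (SE 0.06, adjusted p = 1.8e-08), and 6.62% of all probe sets had a lower change. It stayed called in 21 alternatives, from −0.84 to −0.67.

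Cdkn2a lies beside Cdkn2b and encodes p16 and, from another reading frame, the p53 stabiliser ARF. Its 1 probe set, 1450140_a_at, carries the suffix that the manufacturer gives to sets reading several transcripts of a gene, and which of the products it reads was not settled here. It read 114, 95.3 and 93.4 with rosiglitazone, against 106, 134 and 141 in control cells. The highest treated array lay above the lowest control array, so the groups overlapped. The log2 change was −0.33 (SE 0.12, adjusted p = 0.0317). This call was lost without control replicate 2 or 3 (−0.28 and −0.25) or rosiglitazone replicate 2 or 3 (−0.29 and −0.28), and in 12 of 21 alternatives in all, with adjusted p from 0.00484 to 1.

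Cdkn2c encodes p18. Probe set 1416868_at read 4489, 4689 and 4721 with rosiglitazone, against 5725, 5794 and 5882 in control cells, with a clear gap between the groups. Its log2 change was −0.32 (SE 0.03, adjusted p = 8.7e-08), and it was −0.38 after quantile normalization and −0.20 after median centring, called in both. Cdkn2d, which encodes p19, the remaining INK4 protein, read 318, 287 and 279 with rosiglitazone, against 284, 274 and 286 in control cells. The groups overlapped, and the log2 change of 0.06 (95% interval −0.08 to 0.20, adjusted p = 0.442) did not pass the test. It was 0.17 and called higher after quantile normalization, and 0.19 and called higher after median centring.

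The scale of the arrays bears on the small changes. The median log2 change over all probe sets was 0.08 with median centring and −0.04 as deposited, a shift of 0.12. Higher calls made up 60.4% of all calls with median centring and 52.4% with quantile normalization, against 40.8% as deposited. On the centred scale 9 member probe sets were called lower and 8 higher. All 3 of Ccnd1, that of Cdkn1c, that of Cdkn2b and the brightest of Ccnd3 and Cdkn1b were still called lower there, as were Cdkn2c and 1421679_a_at of Cdkn1a.

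**Figure D3:**
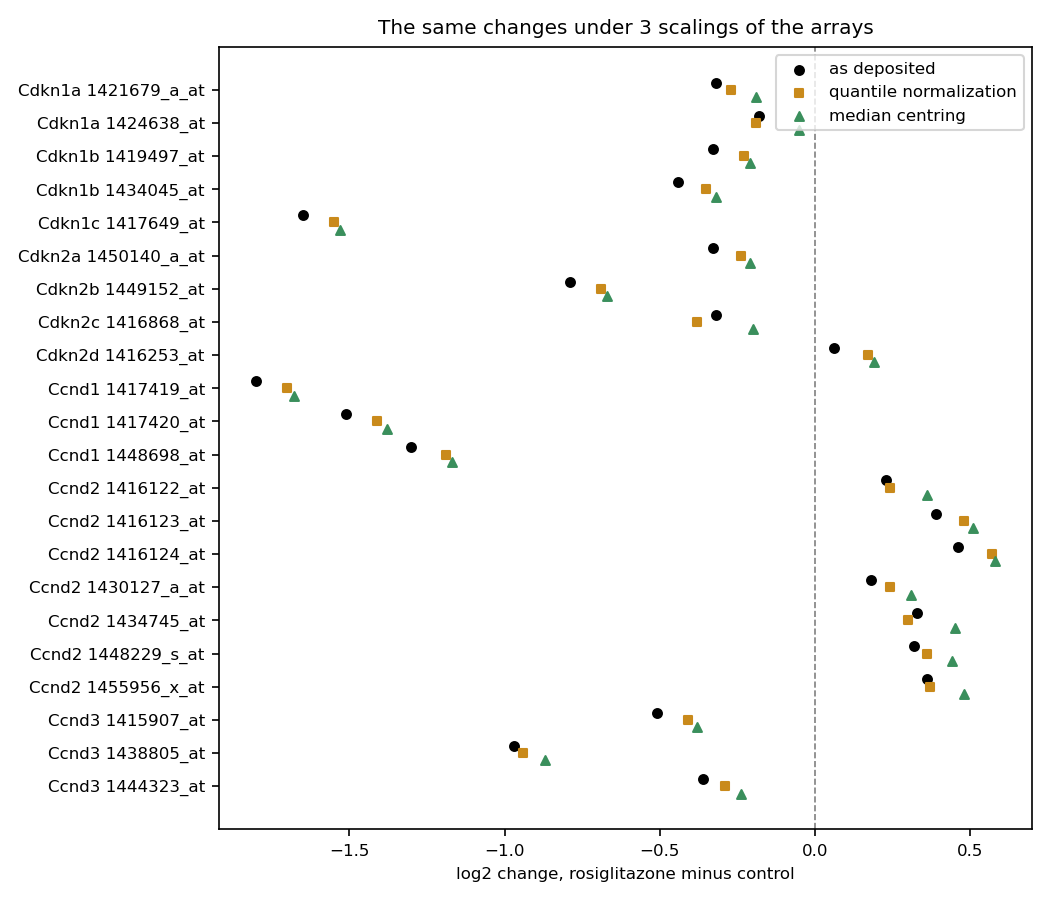
Log2 change, rosiglitazone minus control, of the 22 probe sets on the values as deposited (circles), after quantile normalization (squares) and after median centring (triangles). No probe set changed sign; Cdkn1a 1424638_at came to −0.05 and Cdkn2d to 0.19 after median centring.

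The partners of these proteins were described from lists, each gene by its brightest probe set, beside 23.0% of all 12952 genes called higher, 35.3% called lower and a median change of −0.05. Of 14 tested kinases, later cyclins and their regulators 6 were lower and 2 higher (median −0.07, and 4 lower and 5 higher after median centring). Ccnb2, a cyclin of mitosis, was at 38.6 ± 9.06 with rosiglitazone and 91.2 ± 10.5 in control cells (SD, n = 3 each), a log2 change of −1.26 (−0.50 with a floor of 64). Cdk1, the kinase of mitosis, fell by 0.60 on the log2 scale and Ccna2 by 0.47 (−1.02 when its probe sets were averaged). Cdc25a, which encodes a phosphatase that activates CDKs, rose to 497 ± 25.6 with rosiglitazone, against 239 ± 16.4 in control cells (log2 change 1.06, adjusted p = 1.5e-09). The direct partners of the D-type cyclins, named after their values were seen, had small changes: Cdk4 had a log2 change of −0.18 and Cdk6 of 0.32 (adjusted p = 0.00109 and 5.9e-04). These are values as deposited, and the shift of 0.12 with median centring is large beside the change of Cdk4.

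Of 11 tested genes of the RB and E2F families 5 were lower and 1 higher (median −0.15), but after median centring 1 was lower and 2 were higher. The largest change was that of Rbl1, which encodes the retinoblastoma relative p107: it fell to 110 ± 3.13 with rosiglitazone, against 210.1 ± 8.29 in control cells (log2 change −0.94, and −0.56 with the mean of its probe sets). E2f2 rose by 0.52, a call lost without a filter on low values, with a floor of 64 and with the mean of its probe sets (0.16). Tfdp2 and Rbl2 fell by 0.22 and 0.21, calls that median centring ended (quantile normalization also ended that of Tfdp2). Rb1, named after its value was seen, was at −0.04 (adjusted p = 0.507).

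Among E2F target and proliferation genes 16 of 27 tested were lower and 2 higher, with a median of −0.37 (13 lower and 3 higher after median centring). The other 9 were not called, with log2 changes from −0.37 (Tk1) to 0.28 (Foxm1). The proliferation marker Mki67 fell to 23.0 ± 4.95 with rosiglitazone, against 78.9 ± 6.07 in control cells (log2 change −1.80, adjusted p = 6.7e-07). The helicase subunit genes Mcm5 and Mcm6 fell by 1.42 and 1.14 on the log2 scale, and the topoisomerase gene Top2a fell by 1.25. With a floor of 64 the changes were −0.30 for Mki67 and −0.64 for Mcm5, and with the mean of its probe sets Top2a was at −0.52, all still called. Of this list, 6 of the 33 on the array did not pass the filter. The 2 that rose were Cenpa, a centromere histone gene, by 1.07, and Cdc45, a helicase cofactor gene, by 0.37, both named after their values were seen.

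In the p53 list, of 22 tested genes other than Cdkn1a, 15 were lower and 3 higher, with a median of −0.38 (12 lower and 4 higher after median centring). Sesn1, a stress-response gene, fell by 1.02 (−0.67 when its probe sets were averaged) and Bbc3, which encodes the death protein PUMA, by 0.83. Eda2r fell by 0.77, to 232 ± 8.79 with rosiglitazone, against 396 ± 23.0 in control cells. The largest change was a rise: the kinase gene Plk3 was at 548 ± 44.7 with rosiglitazone and 164 ± 9.90 in control cells (log2 change 1.74, adjusted p = 1.4e-11). The others that rose, named after their values were seen, were the DNA damage gene Gadd45a at 0.45 and Ei24 at 0.11.

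Proteins that degrade or stabilise these cell cycle proteins had 8 genes lower and 3 higher of 17 tested (median −0.16; 6 lower and 4 higher after median centring). Skp2, the ubiquitin ligase subunit that marks p27 for destruction, fell to 48.0 ± 2.85 with rosiglitazone, against 95.9 ± 0.89 in control cells (adjusted p = 3.6e-06), a change of −0.58 on the log2 scale with a floor of 64. Usp2, which encodes a deubiquitinase that stabilises cyclin D1, fell by 0.79, and Ambra1, which encodes a ligase adaptor for D-type cyclins, by 0.45. Dtl, a subunit of a ligase for p21, rose by 0.74 from low values, a call lost with a floor of 64 (0.04) and with the mean of its probe sets (0.36). Cks2 and Cdc27 rose by 0.33 and 0.23, named after their values were seen; Cks2 encodes a small CDK-binding protein and Cdc27 a subunit of the anaphase-promoting complex.

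Regulators of the transcription of these genes had 14 lower and 2 higher of 22 tested, with a median of −0.29 (11 lower and 4 higher after median centring). Id1, which encodes an inhibitor of helix-loop-helix factors that represses Cdkn2a, fell by 1.15, and its activator Ets1 by 0.99 (−0.45 when its probe sets were averaged, still called). Smad7, the feedback inhibitor of TGF-beta signalling, fell by 0.95. Foxo3, a transcription factor gene whose product induces Cdkn1b, fell to 493 ± 29.2 with rosiglitazone, against 887 ± 24.7 in control cells (log2 change −0.85, adjusted p = 1.2e-09). The 2 that rose, named after their values were seen, were Suz12, a Polycomb subunit gene, by 0.31, and Id2 by 0.22.

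**Figure D4:**
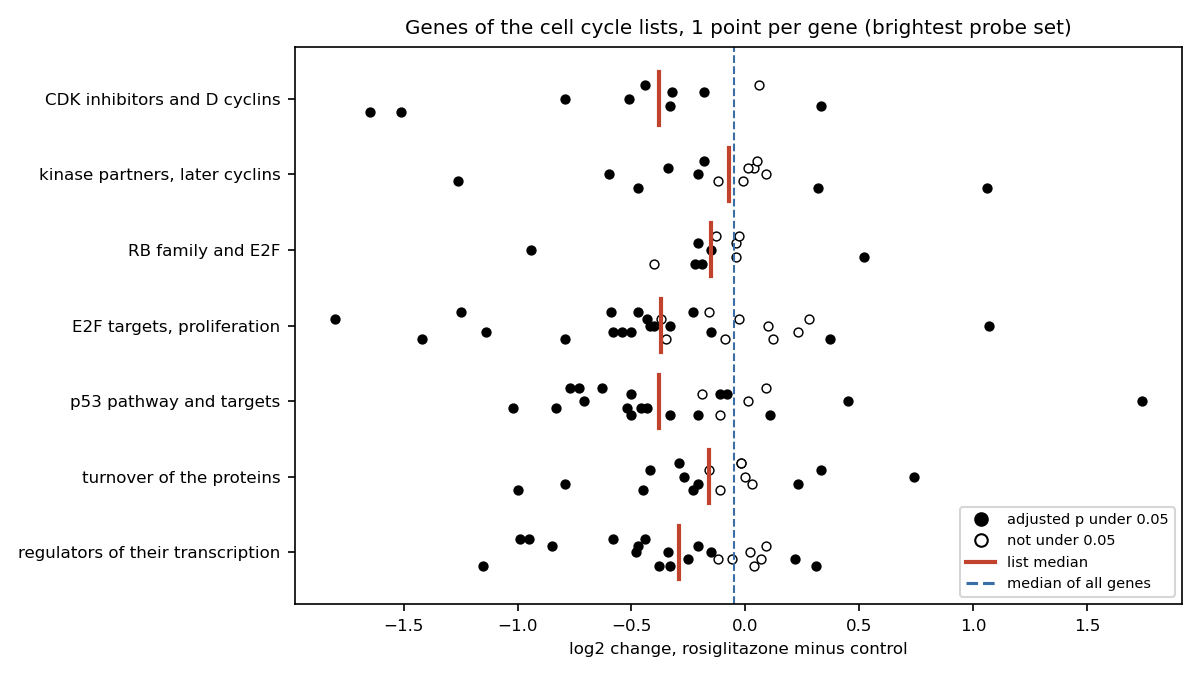
Log2 change, rosiglitazone minus control, of each tested gene (1 point each, vertical spread only for legibility) in 7 lists; filled points passed an adjusted p under 0.05, red bars are list medians and the dashed line is the median of all genes at −0.05. The medians of the members and of the p53 list both lie at −0.38, and that of the E2F targets at −0.37.

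Likeness of pattern was measured for the probe sets with the largest fall and the largest rise, as the root mean square distance over the 6 arrays between log2 values set relative to their own control mean. Among 12231 candidate genes those closest to Ccnd1 (1417419_at) were Socs2, Maob and Pxdn, at distances of 0.0616, 0.068 and 0.0823 and log2 changes of −1.75, −1.79 and −1.85. Those closest to Ccnd2 (1416124_at) were Syngr1, Zscan5b and Magea7-ps, at 0.0434, 0.0477 and 0.0524. With 2 groups of arrays this measure follows the size of the change.

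The markers of the labelled cells and of other cells were read on the same arrays. The adipocyte markers, which check the labelled cell type, passed the filter for all 8 on the array, with Adipoq at 13158 ± 238 with rosiglitazone and 12829 ± 147 in control cells (SD, n = 3 each). Adipoq was not called as deposited. Of these 8, 2 were higher and 2 lower (6 and 2 after median centring). Cidec and Cd36 rose by 0.28 and 0.19 on the log2 scale, and Pparg and Lipe fell by 0.36 and 0.23. The summed intensity of the 8 was 78978 to 79959 with rosiglitazone and 77487 to 78807 in control cells. All 7 thermogenic markers were higher, with Ucp1, the heat-producing protein of brown and beige fat, at 1495 ± 16.9 with rosiglitazone and 5.38 ± 1.37, under the floor, in control cells. Their summed intensity was 26306 to 27359 with rosiglitazone and 7568 to 8277 in control cells.

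Of 11 tested macrophage markers 10 were lower and Fcgr1 was not called, and the summed intensity of the 13 on the array was 4070 to 4387 with rosiglitazone and 11970 to 13038 in control cells. C1qa, a complement gene of macrophages, fell by 1.99 on the log2 scale. Preadipocyte and fibroblast markers were lower in 4 of 5 tested (sum of 6: 2092 to 2132 with rosiglitazone, 4642 to 4738 in control cells), with Pdgfra falling by 1.17. Smooth muscle and mural markers were lower in 5 of 7 and higher in 1 (sum 6154 to 6183 with rosiglitazone, 10679 to 11217 in control cells). Of the 8 endothelial genes 3 were tested, of which Flt1 and Tek fell and Sox18 was called higher at 0.46, a call lost in 9 of 20 alternatives with values from 0 to 0.58, among them those without control replicate 2 and without rosiglitazone replicate 2 or 3 (sum of 8: 241 to 259 with rosiglitazone, 450 to 454 in control cells), and Pecam1, Cdh5, Kdr, Vwf and Emcn lay under the filter. Among 3 tested lymphocyte markers 1 was lower, the pan-leukocyte gene Ptprc (sum of 6: 284 to 308 with rosiglitazone, 450 to 459 in control cells). Of 2 tested epithelial markers 0 were called (sum of 7: 221 to 245 with rosiglitazone, 217 to 235 in control cells). Of 3 tested skeletal muscle markers 1 was called higher, Des at 0.21 (adjusted p = 0.0498), a call lost in 11 of 21 alternatives, among them those without control replicate 1 or 2 and without rosiglitazone replicate 1 or 2 (sum of 6: 421 to 477 with rosiglitazone, 405 to 425 in control cells). No marker list summed to 0 in either group. The sums include genes under the filter, so a sum above 0 does not show that a cell type was present.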

How the data were processed

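Biotin-labelled cRNA from total RNA was measured on 6 Affymetrix mouse 430 2.0 arrays, per the labels. The authors' deposited table gives probe set intensity on a linear scale, with array medians between 44.46 and 46.66. Which software and scaling they used was not given in the sources used here. Precision rests on the number of arrays.

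Symbols came from the platform annotation: 34945 probe sets had 1, 932 had several and 9160 were unlisted. Deposited intensities below 16 (28% to 29% per array) were raised to 16 before log2. Controls and the dimmest 40% of probe sets, with means up to 27.3, were dropped. The comparison used limma 3.58.1 under R 4.3.3 (lmFit, trended eBayes, two-sided), adjusting by Benjamini-Hochberg over 27022 probe sets. It was tested on simulated data in which far fewer probe sets changed than were called here. That test did not cover the scaling of the arrays. In lists a gene stands by its brightest probe set, and up to 4 called genes with the largest change are named unless the text says otherwise. Members and lists were chosen with earlier results of these data known. The alternatives were other filters, scalings, floors, probe set rules and variance models, the replicate block, each array left out, a threshold of 0.01 and limma's treat. Same-numbered samples did not deviate together (r = −0.04, −0.02 and 0.02).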

Additional observations from a re-analysis of the deposited data

How the results depend on the processing

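Over 21 alternatives no call of a member probe set was turned to the other direction. The size of limma's adjusted p depended on the filter and the variance model. That of Cdkn2c went from 8.7e-08 to 0.00159 when eBayes was run without a trend. After median centring, which raised the median log2 change by 0.12, 8706 probe sets were called higher, and 9 member probe sets lower. Why the groups differed in median was not tested. With only the brightest probe set of each gene, 7692 were called (3057 higher, 4635 lower), 9 of them members (1 higher, 8 lower), and with the mean of a gene's probe sets 7191 (2912 higher, 4279 lower), again 9 members (1 higher, 8 lower); in both, fewer features were tested. Against a change of 1.5-fold (limma's treat), which asks for a larger change by construction, 2067 probe sets were called (566 higher, 1501 lower) and 46 list genes, where 122 list genes were called with no minimum change. Treat called 5 member probe sets, 0 higher and 5 lower: the 3 of Ccnd1, that of Cdkn1c and that of Cdkn2b. Leaving out each array in turn gave 12380 to 13550 calls, 18 to 21 member calls and 113 to 124 list genes. With the replicate number as a block 13777 probe sets, 21 member probe sets and 119 list genes were called, and no member call changed; the numbers are not shown to pair the samples. Values near the floor limit what can be read of dim probe sets such as 1438805_at of Ccnd3, whose change was 0 with a floor of 64.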
